A study of Mus musculus with 90 samples.

Results

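The genes described here are imprinted genes of a growth-regulating network: Plagl1, Peg3, Mest, Dlk1, Meg3, Ndn, Grb10 and Sgce. They were chosen by name from a list of 9 genes, and every probe set annotated to a single one of these symbols was taken. This list and the lists of further genes below were chosen with earlier results of these data known. H19, the other listed gene, had no probe set annotated to it alone and was dropped, so 8 of the 15964 genes with a single-symbol probe set remained. The 8 genes had 27 probe sets, of which 20 passed a filter on dim signals (at least 3 of 30 arrays above the chip's median signal) and were tested. Each gene is led by 1 probe set, given first below, and no probe set's level is compared with another's.

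All samples were primary skeletal muscle myoblasts of MyoD-/- mice, which lack a transcription factor that directs muscle differentiation, so there was no wild-type group. The growth medium was Ham's F10 with FBS and bFGF on collagen. It was replaced by DMEM with horse serum, in which myoblasts leave the cell cycle and fuse to myotubes. RNA was taken from growing cells (0h) and at 9 later times, which were 6h, 12h, 18h, 24h, 36h and 48h as well as 3d, 4d and 7d. The cultures were labelled 1999, P6 and P10, with 1 sample each at every time, and each RNA was read on the 3 chips MG_U74Av2, Bv2 and Cv2 (90 arrays). The labels do not say what the culture names stand for or whether a time point was a separate dish. They give the 6h and 12h samples of each culture the same RNA concentration. The spread of log2 differences between these samples was 0.51 to 0.54 (SD over 12373 genes, 3 cultures), against 0.47 to 0.72 between other neighbouring times. The p-values therefore measure only the spread between these samples, and the 9 later times share the same 0h arrays.

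The medium change was visible in marker genes of the mixed RNA. All 10 tested markers of dividing cells passed as lower at 7d, with summed signals of 5621 to 7343 at 7d against 60571 to 86936 at 0h. Of 10 muscle markers 8 passed as higher at 7d, with sums of 93630, 219584 and 326341 in 1999, P6 and P10 at 7d against 5598, 5113 and 11119 at 0h. At 24h the muscle sums were 7552, 53666 and 231233, which differ widely, whereas the dividing-cell sums at 24h were 8764, 7474 and 6939. In 1999 the muscle sum was 48971 at 36h and 35873 at 48h, then 8432 at 3d and 12221 at 4d, which is out of the order of time. Of 7 tested myoblast markers, 3 passed as higher at 7d. Myod1 itself had signals of 2598 to 6889. This is no check of the genotype, since neither the deletion nor the stretch under the probes was analysed here. In bulk RNA, fewer cells of a type and less RNA per cell cannot be told apart.

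Imprinted genes are expressed mainly from the chromosome inherited from one parent, and many of them set fetal and tissue growth. Peg3, Mest, Plagl1, Ndn, Dlk1 and Sgce are known as paternally expressed genes, whereas Meg3, a long noncoding RNA, and, in most tissues, Grb10 are expressed from the maternal copy. Several of these genes are active in muscle precursors and become quieter in grown tissue. CpG-rich stretches near their promoters carry the methylation that marks the parental copies, and the signals below hold both copies together.

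RefSeq start regions (build GRCm38.p6) were matched by symbol for 7 of the 8 genes, Sgce being the exception. The 250 bases before the start are given for the 5 genes with a start region whose signal changed with time or differed between cultures, 5′ to 3′ on the gene's strand, with CpG dinucleotides in capitals. Where RefSeq lists several starts, the one with the most CpGs is shown.
Plagl1, chr10:13090582-13090831, plus strand: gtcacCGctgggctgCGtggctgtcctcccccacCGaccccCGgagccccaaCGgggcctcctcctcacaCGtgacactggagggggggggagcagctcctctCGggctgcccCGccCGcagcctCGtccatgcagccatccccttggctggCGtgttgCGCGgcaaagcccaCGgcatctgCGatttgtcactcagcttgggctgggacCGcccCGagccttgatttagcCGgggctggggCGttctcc
Peg3, chr7:6730420-6730669, minus strand: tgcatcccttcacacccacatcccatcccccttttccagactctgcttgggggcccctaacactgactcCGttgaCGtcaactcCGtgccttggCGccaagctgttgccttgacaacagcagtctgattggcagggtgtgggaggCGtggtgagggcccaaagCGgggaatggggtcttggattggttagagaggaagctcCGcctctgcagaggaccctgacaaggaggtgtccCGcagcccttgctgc
Mest, chr6:30737800-30738049, plus strand: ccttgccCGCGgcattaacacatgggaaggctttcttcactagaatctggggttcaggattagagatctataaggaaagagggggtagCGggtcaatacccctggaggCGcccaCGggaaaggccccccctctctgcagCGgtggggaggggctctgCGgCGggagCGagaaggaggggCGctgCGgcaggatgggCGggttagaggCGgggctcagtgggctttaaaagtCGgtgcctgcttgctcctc
Dlk1, chr12:109452573-109452822, plus strand: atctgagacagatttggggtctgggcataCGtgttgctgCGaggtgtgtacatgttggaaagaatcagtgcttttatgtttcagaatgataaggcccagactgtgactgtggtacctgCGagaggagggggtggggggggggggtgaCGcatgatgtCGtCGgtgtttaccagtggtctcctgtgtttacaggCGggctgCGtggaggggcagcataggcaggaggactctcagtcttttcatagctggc
Meg3, chr12:109540746-109540995, plus strand: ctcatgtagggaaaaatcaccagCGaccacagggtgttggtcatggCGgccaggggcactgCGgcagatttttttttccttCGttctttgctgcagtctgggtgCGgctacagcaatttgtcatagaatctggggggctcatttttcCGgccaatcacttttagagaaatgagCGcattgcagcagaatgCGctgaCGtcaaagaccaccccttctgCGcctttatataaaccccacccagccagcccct
Counted over the 300 bases that end 50 bases past the start, the number of CpGs was 26 for Plagl1, 17 for Mest, 13 for Peg3, 13 for Meg3 and 9 for Dlk1, beside a median of 7 over all 32851 mouse start regions. The most CpG-rich start of Grb10 had 45, a number that 1.93% of all start regions reach, and that of Ndn had 11. The E-box CAGCTG, a motif bound by myogenic factors, was searched on both strands of the same 300 bases. It lay in 1 of the 11 start regions of these genes, a Mest start not shown, and in 16.3% of all start regions. The palindrome GGGGCCCC was in the start region of Peg3 and in 1.08% of all. Such a match is a description of the letters only.

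The first question was which of the genes moved after the medium change. Peg3, Mest and Sgce rose and Plagl1 fell by 18h, while Ndn and Grb10 passed at no time, and Meg3 and Dlk1 passed at no time on their leading probe sets. Changes were tested with limma on log2(signal + offset), with culture as a block and the offset at the 25th percentile of each chip (119.8, 270.1 and 213.0). Passing means a Benjamini-Hochberg adjusted p under 0.05 over all 24307 tested probe sets. The offset makes folds of dim signals smaller than the ratio of the signals.

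At 6h 0 of 8 genes passed (3 at an unadjusted p under 0.05), while 1.56% of all 12373 tested genes passed (0.929% higher and 0.63% lower). At 12h 1 gene passed, Sgce, beside 4.8% of all genes (2.39% higher and 2.41% lower). At 18h 3 rose, Mest, Peg3 and Sgce, and 1 fell, Plagl1, where 11.9% of all genes passed (5.88% higher and 6.06% lower). The same 4 genes passed at 24h in the same directions, beside 11.4% of all genes (6.17% higher and 5.2% lower). These are the times at which the share of the 8 genes stood furthest above that of all genes. Since the genes were chosen with earlier results of these data known, these shares and the medians below are descriptions and no test.

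From 36h to 3d the passing genes were Peg3 and Sgce, higher, and Plagl1, lower. All genes passed at 10.9% at 36h (6.02% higher and 4.89% lower), at 14.4% at 48h (7.53% higher and 6.84% lower) and at 13.3% at 3d (7.08% higher and 6.2% lower). At 4d and at 7d 2 of the 8 passed, Sgce higher and Plagl1 lower. At 4d 14.5% of all genes passed (7.61% higher and 6.87% lower), and at 7d 19.2% (9.92% higher and 9.26% lower), a share not far from that of the 8 genes. The median log2 change of the 8 genes was 0.83 at 18h and 0.78 at 7d, against 0.02 and −0.05 over all genes.

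The test of any change over the 10 times passed for Plagl1 (adjusted p = 0.0018) and Sgce (adjusted p = 0.0017), beside 10.8% of all genes. Between a time and the one before it, 0 of the 8 genes passed in limma at any of the 8 steps after 6h. Only at 18h against 12h did 1 of them reach an unadjusted p under 0.05, and at most 0.178% of all genes passed at any such step. Without culture as a block the counts were smaller, with 1 gene at 18h, 1 at 24h and 1 at 7d. With only the 6 arrays of the compared times, 1 passed at 18h and 2 at 24h.

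**Figure D1:**
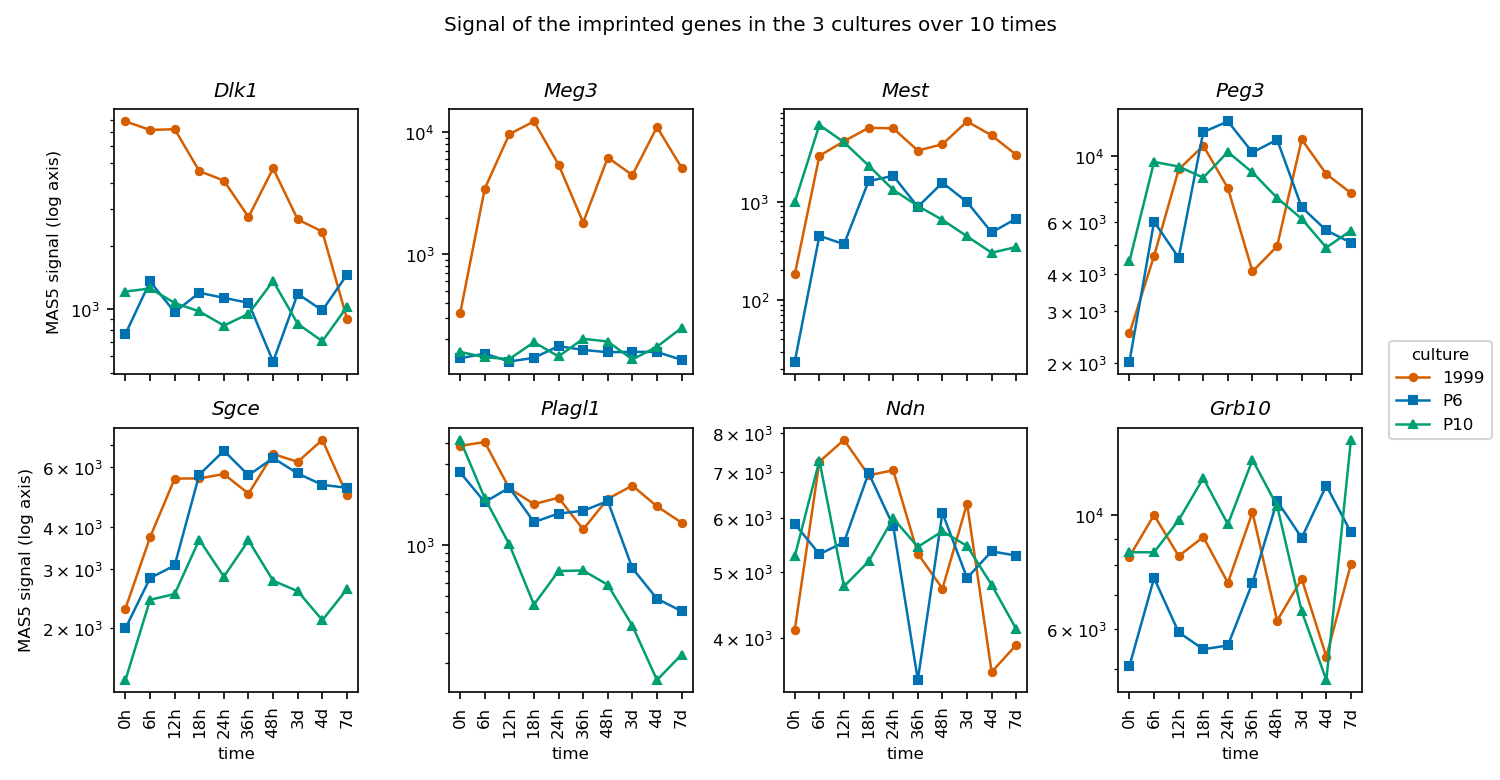
Signal (log axis) of the leading probe set of each gene against time, with 1 line for each culture. Meg3 and Dlk1 lie far higher in culture 1999 than in P6 and P10 (Dlk1 until 4d), Plagl1 drops in all cultures, and Peg3 and Mest rise above their 0h signal by 6h.

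**Figure D2:**
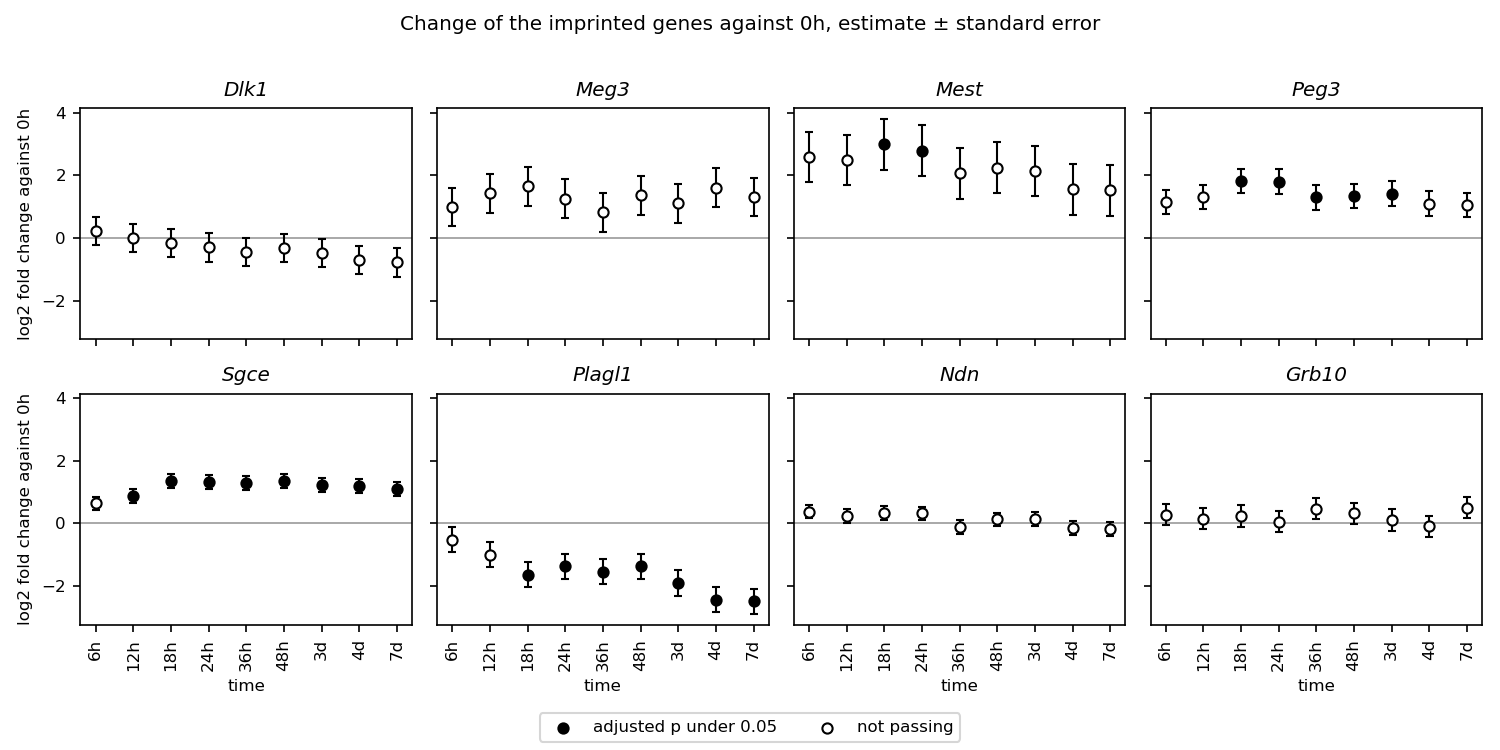
Log2 fold change against 0h with its standard error for the leading probe set of each gene at the 9 later times. Filled points passed the adjusted test: Sgce from 12h on, Plagl1 from 18h on, Peg3 from 18h to 3d and Mest at 18h and 24h.

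Plagl1 encodes a zinc finger transcription factor that can halt the cell cycle and that regulates other imprinted genes. It fell in every culture. On the leading probe set, 92502_at, its signals were 1356, 406 and 225 in 1999, P6 and P10 at 7d, against 3864, 2694 and 4193 at 0h. The 2 groups of values did not overlap, and culture 1999 kept the highest signal at 7d. The mean was 662 ± 608 at 7d and 3584 ± 788 at 0h (SD, n = 3), a log2 fold change of −2.50 ± 0.40 and a 5.65-fold decrease (adjusted p = 0.00011). The decrease was already present at 18h (log2 fold change −1.65 ± 0.40, adjusted p = 0.0091) and passed at each later time.

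All 4 Plagl1 probe sets, on 3 chips, fell at 7d. The log2 fold changes of the others were −2.18 ± 0.35 for 92501_s_at (adjusted p = 0.00013), −2.54 ± 0.38 for 163814_r_at (adjusted p = 5.4e-05) and −2.32 ± 0.48 for 166084_f_at (adjusted p = 0.0013). In 163814_r_at the 7d signals were 1346, 471 and 164 in 1999, P6 and P10, against 5563, 2824 and 5435 at 0h. The chips thus gave like sizes for the same RNA samples, and the 3 probe sets with an s, r or f mark are of a shared or incomplete design.

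The time course differed in steepness. In P10 the leading probe set gave 4193 at 0h, 1896 at 6h, 1008 at 12h and 444 at 18h. In P6 it gave 2694 at 0h, 1821 still at 48h, 729 at 3d and 406 at 7d. In 1999 it gave 3864 at 0h, 4070 at 6h, 2162 at 12h and values between 1238 and 2247 from 18h on. From 12h on P10 was thus the lowest culture at the times given, and it was also the one with the highest muscle marker sum at 24h. On Av2 the P10 arrays of 12h to 4d were scanned in another session than those of 0h and 6h. The Av2 arrays of 1999 and of P6 stayed in 1 session each up to 48h. The part of the session in this course was not tested. The mean change from the early times (0h, 6h, 12h) to the late times (3d, 4d, 7d) was −2.61 in P10, −1.84 in P6 and −0.86 in 1999. The difference between cultures in this change did not pass (adjusted p = 0.18). The 7d call held whichever culture was left out, with adjusted p between 0.00044 and 0.022. Without P10 the calls from 18h to 4d were lost, with log2 fold changes from −0.77 at 48h to −1.68 at 4d. Without P6 those at 24h and 48h were lost, and without 1999 that at 36h. Leaving out only the 1999 arrays of 36h and 48h also ended the calls at 36h (−1.22) and 48h (−1.25).

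**Figure D3:**
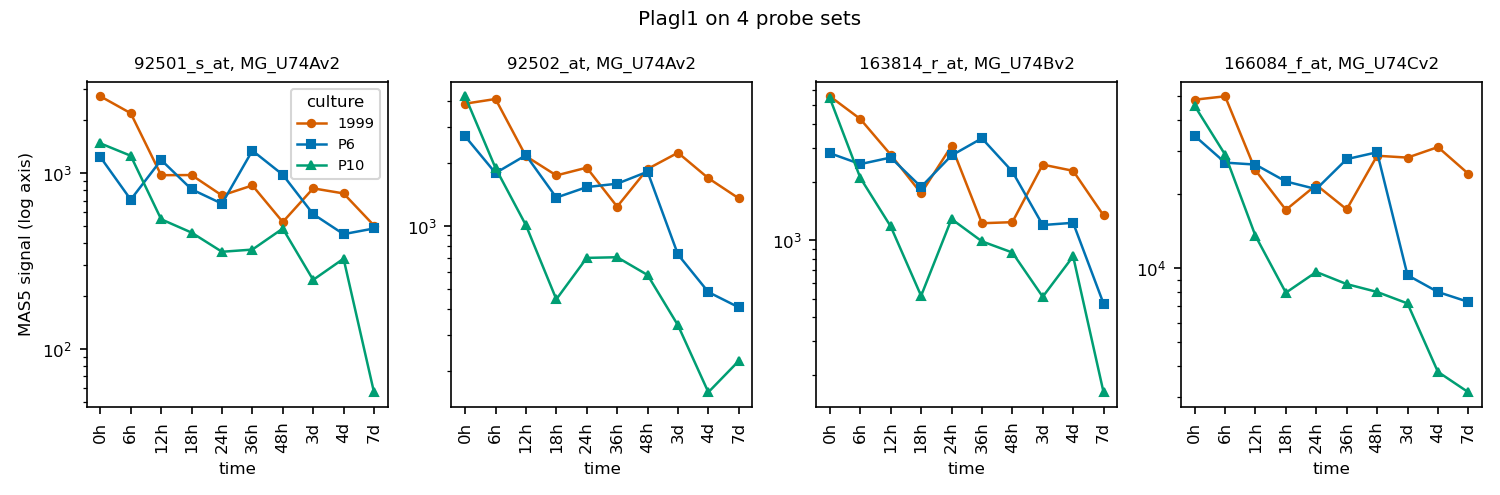
Signal (log axis) of the 4 Plagl1 probe sets against time, with 1 line for each culture. On all 4 the 7d signal lies below the 0h signal in each culture, and P10 is the lowest at 7d.

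Peg3 encodes a large zinc finger protein with roles in cell survival and in muscle stem cells. It rose after the medium change. The mean of the leading probe set was 10367 at 24h and 6058 at 7d, a difference that was not tested. In 1999 Peg3 changed against 0h by 1.58 at 24h and 1.53 at 7d on the log2 scale. On 96765_at its signals were 10800, 12005 and 8432 in 1999, P6 and P10 at 18h, against 2521, 2028 and 4413 at 0h. At 24h they were 7775, 13039 and 10287, again above every 0h value. The log2 fold change was 1.82 ± 0.39 at 18h, a 3.53-fold increase (adjusted p = 0.0037), and 1.80 ± 0.39 at 24h (adjusted p = 0.0043). It was 1.05 ± 0.39 at 7d, where the gene did not pass (adjusted p = 0.078) although all 3 cultures lay above their 0h signals. Without the 1999 arrays of 36h and 48h it passed at 7d as well (1.05, adjusted p = 0.046).

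The high point of Peg3 came at different times. P6 had its highest signal at 24h (13039), P10 also at 24h (10287), and 1999 at 3d (11339) after lower values of 4076 at 36h and 4956 at 48h. Without P6 the call was lost at 18h (log2 fold change 1.48, adjusted p = 0.10) and at 24h (1.39, adjusted p = 0.13). The call at 3d was lost whichever culture was left out. Without P6 or without P10 the calls at 36h and 48h were also lost, with values of 0.82 and 0.82 without P6. The other probe sets of Peg3 gave no passing change. At 18h, 101451_at changed by 1.47 ± 0.63 (adjusted p = 0.18) and 161316_f_at by 0.46 ± 0.17 (adjusted p = 0.10), both higher in 3 of 3 cultures.

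Mest encodes an enzyme-like protein of the alpha/beta hydrolase fold and is a marker of growing mesoderm. It had the largest fold among these genes at 18h and also the widest spread. On its single probe set, 92607_at, the signals were 5611, 1614 and 2322 in 1999, P6 and P10 at 18h, against 183, 23.7 and 987 at 0h. The P6 value at 0h lay under the offset, which limits the fold. Every 18h value exceeded every 0h value. The log2 fold change was 2.99 ± 0.81, a 7.96-fold increase (adjusted p = 0.021), and at 24h it was 2.79 ± 0.81 (adjusted p = 0.034).

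In P10 Mest peaked at 6h with 6000 and declined to 346 at 7d, below its 0h signal of 987. In 1999 it kept signals between 2915 and 6520 from 6h on, and in P6 it reached 1827 at 24h and had 671 at 7d. All 3 cultures had risen by 6h, and only P10 ended below its start. The calls at 18h and 24h were lost without 1999 (log2 fold changes 2.37 and 2.07) and without P6 (2.69 and 2.30), and the 24h call was also lost with the offset at the median (1.82, adjusted p = 0.058). Without P10 the gene passed at 7d as well (2.91, adjusted p = 0.0021).

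Sgce encodes epsilon-sarcoglycan, a membrane glycoprotein of the dystrophin-associated complex. It rose early and stayed higher. On its single probe set, 101861_at, the signals were 5557, 5702 and 3656 in 1999, P6 and P10 at 18h, against 2284, 1995 and 1402 at 0h. At 7d they were 4971, 5213 and 2605. Neither time overlapped with 0h, and P10 had the lowest signal of the 3 cultures at all 10 times. The log2 fold change was 0.88 ± 0.22 at 12h (adjusted p = 0.024), 1.34 ± 0.22 at 18h (a 2.53-fold increase, adjusted p = 0.00025) and 1.09 ± 0.22 at 7d (adjusted p = 0.0011).

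The calls on Sgce at 18h, 24h, 36h, 48h, 3d and 7d held whichever culture was left out. That at 12h was lost each time, and that at 4d was lost without 1999 (adjusted p = 0.054). Without culture as a block it passed at no time (adjusted p = 0.092 at 18h and 0.14 at 7d), and with scan session as a block it did not pass at 7d (0.52, adjusted p = 0.44). Sessions and times overlap little, since 0h and 7d arrays shared a session on 1 of the 3 chips, Cv2. There the shared session held 1999 at 0h with P6 and P10 at 7d. Within each culture, 0h and 7d arrays were in different sessions on all 3 chips. On Av2, which holds the leading probe sets of all these genes but Grb10, no session held both. Every change from 0h to 7d, that of Plagl1 included, thus also crosses scan sessions.

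Of 8 tested other genes of the sarcoglycan and dystrophin complex, 4 passed as higher at 24h and 5 at 7d, where 6.17% and 9.92% of all genes passed as higher. None of the 8 passed as lower, and their median log2 change at 7d was 1.53 against −0.05 over all genes. The largest were Sgca, the alpha-sarcoglycan of striated muscle (3.13 ± 0.28, 8.75-fold, adjusted p = 9.3e-08), Dag1, the dystroglycan core (2.28 ± 0.23, adjusted p = 5.2e-07), and Sspn, sarcospan (1.57 ± 0.23, adjusted p = 4.7e-05). Sgca rose in all cultures to 2259, 3953 and 5913 in 1999, P6 and P10 at 7d, against 332, 205 and 475 at 0h. P10 had the lowest Sgce but the highest Sgca of the 3 cultures at 7d.

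Ndn, the MAGE-family protein necdin, is known as a brake on cell division that favours differentiation of neurons and muscle. On 101059_at its signals were 3905, 5282 and 4120 in 1999, P6 and P10 at 7d, against 4111, 5879 and 5270 at 0h. The log2 change was −0.19 ± 0.22 (adjusted p = 0.67), and no time passed on either of its probe sets. Over all 30 arrays the signal lay between 3468 and 7813, and no culture stood apart. Its estimates against 0h lay between −0.19 at 7d and 0.37 at 6h.

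Grb10 encodes an adaptor that binds insulin and insulin-like growth factor receptors and restrains their signal. Only 1 of its 4 probe sets was tested, 170503_r_at, whose mark r denotes an incomplete design. Its signals were 8028, 9267 and 14061 in 1999, P6 and P10 at 7d, against 8308, 5073 and 8468 at 0h, and the values overlapped (log2 change 0.50 ± 0.34, adjusted p = 0.40). The 3 Av2 probe sets stayed dim, with highest signals of 389, 132 and 179, and gave no tested value.

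A second comparison asked whether the cultures differed from each other over the whole course, with time in the model. Of the 8 genes 5 passed (Meg3, Dlk1, Mest, Plagl1 and Sgce), beside 29.9% of all tested genes. The times of 1 culture are not separate cultures, so these p-values describe 1999, P6 and P10 and nothing wider. Scan sessions mostly held a single culture (5 of 6 sessions on Av2), so session and culture cannot be told apart.

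Meg3 showed the largest difference between cultures. On the leading probe set, 160172_at, the signal in 1999 lay between 327 and 12288 with a median of 5282, against 132 to 176 (median 155) in P6 and 137 to 248 (median 166) in P10. The ranges did not overlap, and 1999 was higher at 10 of 10 times. The log2 difference was 4.06 ± 0.34 for 1999 minus P6 and 3.96 ± 0.34 for 1999 minus P10, which are 16.7-fold and 15.5-fold (adjusted p = 7.6e-09). P10 minus P6 was 0.10 ± 0.34.

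Within 1999 the Meg3 signal was 327 at 0h, 3448 at 6h, 9663 at 12h, 12288 at 18h, 5438 at 24h and 1819 at 36h. It was then 6211 at 48h, 4457 at 3d, 11052 at 4d and 5126 at 7d. The lowest value of that culture was thus its 0h sample, but 1 culture gives no test of this. A second Av2 probe set, 160173_at, gave 2433 to 9073 in 1999, against 51.5 to 416 in P6 and 117 to 505 in P10 (adjusted p = 2.7e-10). In that probe set the 0h signal of 1999 was 2901, which is not the lowest of the culture.

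The 7 other Meg3 probe sets, on Bv2 and Cv2, did not separate the cultures in this way. Only 109661_at passed (adjusted p = 0.031), with 581 to 1531 in 1999, against 213 to 1331 in P6 and 230 to 777 in P10, ranges that overlap. The values for 164148_at, 136641_at and 166581_r_at were adjusted p = 0.13, 0.92 and 0.47, and 3 were too dim to be tested. The transcript parts that the probe sets cover were not analysed here. Against 0h, Meg3 passed at no time (log2 fold change 1.31 ± 0.62 at 7d, adjusted p = 0.18).

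**Figure D4:**
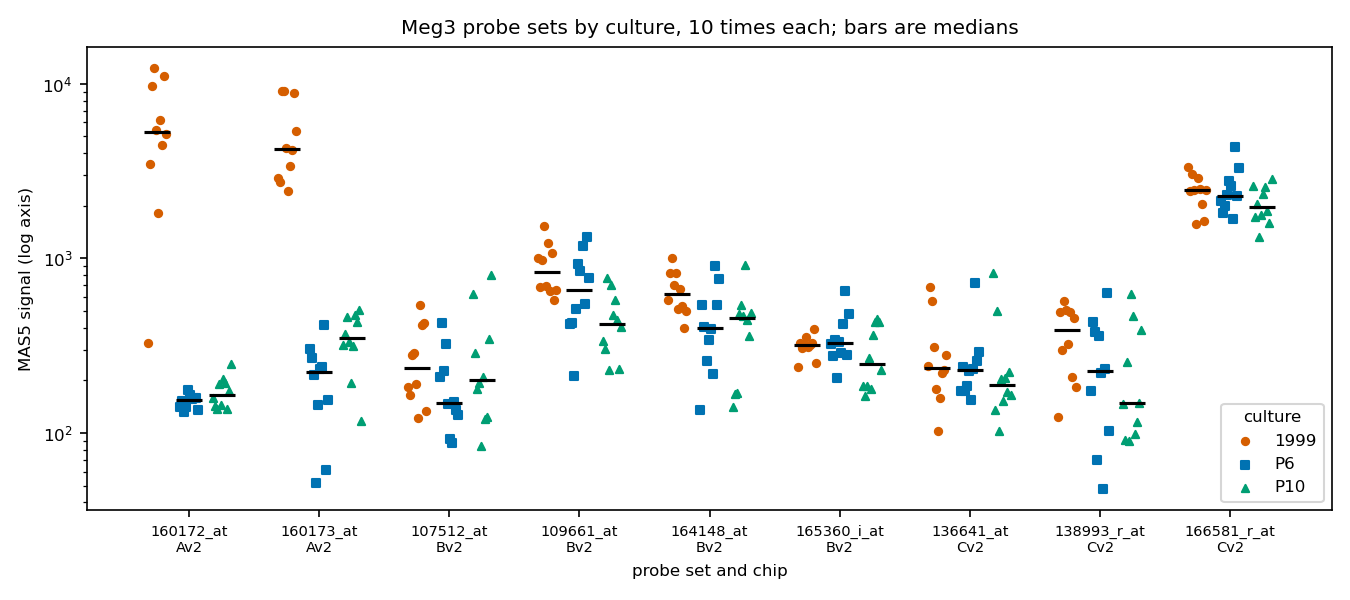
Signal (log axis) of the 9 Meg3 probe sets, with 10 times per culture as points and the culture median as a bar. Only the 2 probe sets at the left, both on Av2, place all 1999 points above all those of P6 and P10.

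Dlk1, the neighbour of Meg3 on chromosome 12, encodes a transmembrane protein with EGF repeats that holds preadipocytes and other precursors undifferentiated. On 101975_at its signals were also highest in 1999. They ranged from 905 to 7850 with a median of 4330, against 565 to 1462 in P6 (median 1105) and 706 to 1366 in P10 (median 1003). 1999 was higher than each other culture at 9 of 10 times, the exception being 7d. The log2 difference was 1.75 ± 0.25 for 1999 minus P6 and 1.79 ± 0.25 for 1999 minus P10 (adjusted p = 9.7e-06).

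In 1999 Dlk1 declined over the course, with 7850 at 0h, 7148 at 6h, 7209 at 12h, 4558 at 18h and 4102 at 24h. It had 2753 at 36h, 4693 at 48h, 2681 at 3d, 2347 at 4d and 905 at 7d. By 7d all 3 cultures lay between 905 and 1462. The mean signal in the late times was 1978 ± 944 in 1999 and in the early times 7402 ± 389 (SD, n = 3 times each). The change from early to late was −1.97 in 1999, 0.23 in P6 and −0.42 in P10, and this difference passed (adjusted p = 0.032), beside 2.04% of all genes. Dlk1 was the only one of the 8 genes to pass that test, on its leading probe set. The call was lost without 1999 (adjusted p = 0.56), without P6 (0.11), without P10 (0.053), with P6 at 6h and 12h left out (0.057) and with 1999 at 4d and 7d left out (0.089).

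Against 0h over all cultures Dlk1 changed by −0.78 ± 0.45 at 7d (adjusted p = 0.30), and without 1999 this value was 0.31. A further Dlk1 probe set, 169192_i_at on Cv2, did not pass the test between cultures (adjusted p = 0.87). Nor did it pass the test of the early to late change by culture (adjusted p = 0.72). Its changes there were 0.65 in 1999, 0.91 in P6 and −0.14 in P10. Against 0h, 169192_i_at was higher at 18h (log2 fold change 2.02 ± 0.56, adjusted p = 0.023) and at no other time. The 18h signals were 1400, 3916 and 2716 in 1999, P6 and P10, against 455, 288 and 665 at 0h. The leading probe set gave −0.16 ± 0.45 at 18h, so the 2 probe sets do not show the same course.

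Among the other genes, Mest was higher in 1999 than in P6 at 10 of 10 times (log2 difference 2.04 ± 0.45) and than in P10 at 8 of 10 (1.43 ± 0.45, adjusted p of the test 0.0041). Plagl1 was higher in 1999 than in P10 at 9 of 10 times (1.44 ± 0.22, adjusted p = 0.00012). Sgce was higher in 1999 than in P10 at 10 of 10 times (0.94 ± 0.12) and did not separate 1999 from P6 (0.15 ± 0.12; adjusted p of the test 5.8e-06). Peg3, Ndn and Grb10 did not pass (adjusted p = 0.89, 0.97 and 0.44), with differences of at most 0.31 between any 2 cultures on the leading probe sets. Without 1999, Meg3, Dlk1 and Mest did not pass (adjusted p = 0.55, 0.92 and 0.52). Without P6, Mest did not pass (0.056), and without P10, Plagl1 (0.068) and Sgce (0.49) did not.

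Markers of cell types also differed between cultures, beside 29.9% of all genes. The test passed for 8 of 10 muscle, 5 of 7 myoblast, 4 of 10 dividing-cell and 2 of 5 smooth muscle markers tested. It also passed for 2 of 3 adipocyte, 1 of 2 macrophage and 0 of 1 endothelial markers tested. Of the 9 fibroblast markers, 5 were tested and 4 passed the test between cultures. Their summed signal was 69506 to 99268 in 1999, against 13428 to 45409 in P6 and 15498 to 66244 in P10. Most of that difference lay in 1 probe set of the collagen gene Col1a2, a neighbour of Sgce, with 42356 to 66049 in 1999 against 64.6 to 174 in P6 and 52.3 to 617 in P10. Without Col1a2, left out after its values were seen, the sums were 27150 to 42059 in 1999, 13326 to 45257 in P6 and 15446 to 65627 in P10, which overlap.

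A second Col1a2 probe set had medians of 5113, 5063 and 4971 in 1999, P6 and P10. Lum, Thy1, Tcf21 and Fap were too dim to be tested. Adipocyte markers summed to 6528 to 18433 in 1999, 6383 to 15528 in P6 and 4093 to 7030 in P10, with Adipoq, Fabp4, Cidec and Pparg too dim. Endothelial markers summed to at most 1388, with 1 of 7 tested, and macrophage markers to 3321 to 8036 in 1999, 3282 to 4559 in P6 and 3114 to 4955 in P10, with 2 of 8 tested. Smooth muscle markers, 5 of 6 tested, summed to 23809 to 53212 in 1999, 9661 to 57309 in P6 and 11715 to 64539 in P10. No marker signal was at 0. The part of these markers in the differences of Meg3, Dlk1, Mest, Plagl1 and Sgce was not tested.

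Genes beside Meg3 and Dlk1 in the same imprinted domain on chromosome 12 were looked up after the culture difference had been seen. Begain, Rtl1, Rian and Mirg did not pass the test between cultures (adjusted p = 0.67, 0.83, 0.61 and 0.35). Their leading probe sets are not on Av2, and those of Rian and Mirg carry an r mark. The Meg3 probe sets on Bv2 and Cv2 did not separate the cultures as those on Av2 did. Probe sets of Plagl1 on these chips did pass the test between cultures (adjusted p = 0.0021 on Bv2 and 0.00065 on Cv2). The domain neighbours thus gave no passing difference on the probe sets used, which does not show that there was none. Rian, a noncoding RNA of the maternal chromosome like Meg3, had medians of 677, 409 and 526 in 1999, P6 and P10. Beside Sgce on chromosome 6, the paternally expressed Peg10 differed between cultures (adjusted p = 8e-05) and did not pass at 7d (log2 change 0.20 ± 0.34, adjusted p = 0.78). Beside Ndn on chromosome 7, the imprinted Peg12 fell (log2 fold change −1.56 ± 0.34 at 7d, adjusted p = 0.0025). Bet1 beside Sgce (0.59 ± 0.18, adjusted p = 0.025), Stx11 beside Plagl1 (1.98 ± 0.49, adjusted p = 0.0064) and Cobl beside Grb10 (1.01 ± 0.28, adjusted p = 0.014) were higher at 7d. Cep41 beside Mest was lower at 7d (−0.67 ± 0.19, adjusted p = 0.018). No other of the nearest tested neighbours passed at 7d, where 19.2% of all genes passed. Besides Peg10, the neighbours Col1a2, Sf3b5, Ltv1, Phactr2, Ube3a, Chrna7, Ddc and Cobl passed the test between cultures, as did 29.9% of all genes. An effect of the locus was not tested. The 4 tested neighbours of Peg3, which were Zfp667, Zfp28, Aurkc and Zfp954, passed at neither 24h nor 7d.

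A list of 42 further imprinted genes was set beside the 8. Of its 27 tested genes 4 passed as higher and 1 as lower at 24h, and 5 as higher and 2 as lower at 7d, where 11.4% and 19.2% of all genes passed. Its median log2 change at 7d was −0.01, against −0.05 over all genes, and 12 of 27 differed between cultures beside 29.9% of all genes. Igf2, the fetal growth factor, rose 21.6-fold on its leading probe set (log2 fold change 4.43 ± 0.76 at 7d, adjusted p = 0.00024). The Igf2 signals were 21038, 40592 and 48907 in 1999, P6 and P10 at 7d, against 744, 935 and 4481 at 0h. All 3 cultures rose, and at 24h 1999 had 1122 where P6 had 13853 and P10 65858.

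Dcn, a matrix proteoglycan, rose by 3.10 ± 0.38 (8.58-fold, adjusted p = 5e-06), and Osbpl5, an oxysterol-binding protein, by 1.04 ± 0.17 (adjusted p = 0.00012). Igf2r, the receptor that clears Igf2, rose by 0.98 ± 0.18 (1.97-fold, adjusted p = 0.00049). Slc22a18, a transporter, fell by 0.79 ± 0.19 on the log2 scale (adjusted p = 0.0057), and Peg12 is given above. Cdkn1c, which encodes the cell cycle inhibitor p57, passed at 18h (3.01 ± 0.91, adjusted p = 0.041) and not at 24h (2.69 ± 0.91, adjusted p = 0.073) or 7d (1.54 ± 0.91, adjusted p = 0.31). Its signals were 1564, 230 and 349 in 1999, P6 and P10 at 7d, against 162, 29.6 and 147 at 0h, and P10 reached 8390.

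**Figure D5:**
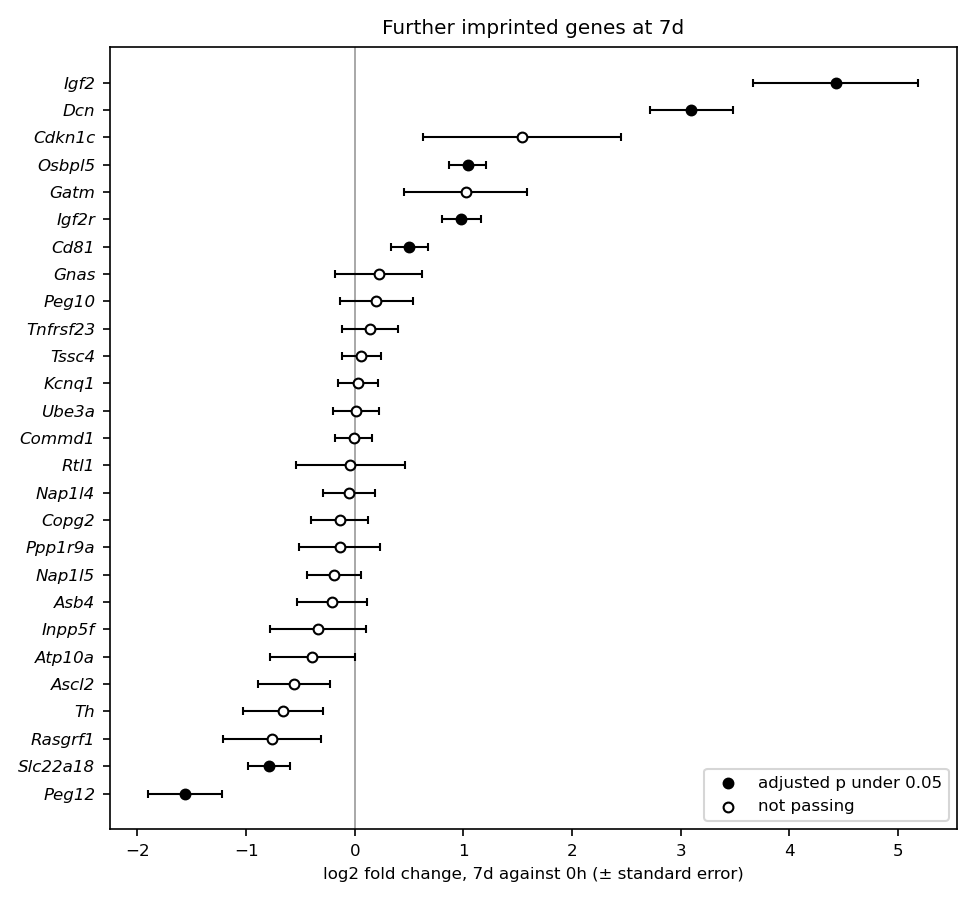
Log2 fold change at 7d against 0h with its standard error for the 27 tested genes of the list of further imprinted genes. Filled points passed the adjusted test: Igf2, Dcn, Osbpl5, Igf2r and Cd81 higher, Peg12 and Slc22a18 lower.

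Of the insulin-like growth factor axis, the pathway that Grb10, Igf2 and Igf2r act in, 4 of 17 tested genes rose at 24h and 6 at 7d, where 6.17% and 9.92% of all genes rose. The binding protein Igfbp3 rose by 2.19 ± 0.44 at 7d (4.57-fold, adjusted p = 0.0011) and by 3.33 ± 0.44 at 24h (10.1-fold, adjusted p = 2.2e-05). Grb14, an adaptor related to Grb10, rose by 1.79 ± 0.41 at 7d (adjusted p = 0.0032), whereas Grb10 did not pass. The median of the 17 genes at 7d was 0.82, against −0.05 over all genes.

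In the Notch pathway, which Dlk1 is known to modulate, 1 of 9 tested genes rose at 24h (Notch3, 1.08 ± 0.29, adjusted p = 0.020), beside 6.17% of all genes. At 7d limma called 0 of the 9 (2 before adjustment, with p under 0.05), and their median was −0.29, against −0.05 over all genes. Of the regulators of imprinted loci 3 of 9 fell at 24h and 4 at 7d, where 5.2% and 9.26% of all genes fell. These were Uhrf1, a partner of maintenance methylation (−3.31 ± 0.37 at 7d, adjusted p = 1.6e-06), Ezh2, a histone methyltransferase (−2.16 ± 0.19, adjusted p = 9.3e-08), Dnmt1, the maintenance DNA methyltransferase (−1.43 ± 0.17, adjusted p = 4e-06), and Trim28, a corepressor (−0.64 ± 0.16, adjusted p = 0.0074). The markers of dividing cells fell over the same times in 10 of 10 cases, and their part in this fall was not tested.

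The genes were also compared by the shape of their log2 levels over the 30 RNA samples, which share cultures and times, so that no p is given. Among the 8, Peg3 and Mest had a Pearson correlation of 0.62 over all samples and of 0.82, 0.96 and 0.69 within 1999, P6 and P10 (10 times each). Peg3 and Sgce had 0.52 over all samples and 0.76, 0.84 and 0.69 within the cultures. Meg3 and Dlk1 had 0.72 over all samples but −0.25, −0.05 and 0.06 within 1999, P6 and P10. In P6 and P10 the Meg3 signals stayed near the offset, at 132 to 176 and 137 to 248. The values within these cultures therefore cannot show a shared course, and only 1999 could have shown a likeness along time.

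Outside the 8, the genes most like Meg3 were Xaf1, Foxa2 and Cd99, each with a correlation of 0.93, and those most like Dlk1 were Rab3b (0.93), Ano1 (0.91) and Cox6b2 (0.90). Plagl1 was most like Marcksl1 (0.93), Pabpc1 (0.92) and Ruvbl1 (0.91). Sgce was most like Lmf1 (0.90), Gstm1 (0.89) and Thra (0.89). For Peg3 these were Lrrc17 (0.86), Abca7 (0.85) and Mxd4 (0.83), and for Mest Idh1 (0.86), Ttc3 (0.85) and Dnm1 (0.85). Ndn and Grb10 had no close match, with highest correlations of 0.66 to Ntan1 and 0.66 to Colq.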

How the data were processed

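Biotin-labelled cRNA was hybridised to MG_U74Av2, MG_U74Bv2 and MG_U74Cv2 arrays, 30 of each. The deposited values are probe set signal intensities on a linear scale, made with MAS5 per the submitters' processing notes. Settings and versions are not given in the sources used here. Mean signals per array lay between 1946 and 3009, and no further scaling was applied. Instrument records gave the scan sessions, and on Av2 and Bv2 no session held both 0h and 7d arrays. On Cv2 no session held both for the same culture. Gene symbols came from platform annotation, in which 29131 probe sets had 1 symbol, 724 several and 6846 none.

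Control probe sets (66 per chip) were left out. Values were log2(signal + offset) and were fitted per chip with limma 3.58.1 in R 4.3.3, with time and culture in the model. Benjamini-Hochberg adjustment covered the 24307 tested probe sets of all chips. The number of arrays limits the precision. A gene is led by its tested probe set without a suffix mark, on Av2 before Bv2 before Cv2, and then by the brightest.

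Culture pairs the samples because the titles repeat its name at every time. As a check, deviations from the time means correlated within a culture with a median r of 0.44, 0.232 and 0.0877 on Av2, Bv2 and Cv2. Of these correlations 92.6%, 74.1% and 45.2% exceeded 0.1, so the pairing was weak on Cv2. Between cultures the median r was −0.199, −0.0846 and −0.0359. The negative sign follows from taking deviations from the mean of the 3 cultures and is no check. All members are named, with Igf2, Igf2r and Cdkn1c, and from each list up to 3 passing genes with the largest rise and 3 with the largest fall at 7d. Neighbouring genes and Col1a2 were added after their values were seen. The members and lists were chosen with earlier results of these data known. The script was tested on simulated data. Alternatives were no culture block, scan session as block, other offsets, quantile normalization, other filters, fewer arrays and each culture left out. Also left out, a choice made after seeing the data, were P6 at 6h and 12h (samples with the same labelled RNA concentration), 1999 at 36h and 48h, and 1999 at 4d and 7d, whose instrument records hold no sample note.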

Additional observations from a re-analysis of the deposited data

Results flagged for a closer look

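On its leading probe set, the early to late change of Dlk1 differed between cultures by an interaction test in limma (adjusted p = 0.032). The log2 changes were −1.97 in 1999, −0.42 in P10 and 0.23 in P6. Its other tested probe set, 169192_i_at, did not pass this test (adjusted p = 0.72), with 0.65 in 1999, −0.14 in P10 and 0.91 in P6. The call on the leading probe set did not hold when any 1 culture was left out. The test takes the 3 times of a phase in a culture as replicates, so its p measures the spread between times and not between separate cultures.

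The probe set annotated to both H19 and Mir675, the noncoding RNA H19 being the host of the microRNA, was outside the members because it carries more than 1 symbol. At 7d it had the largest fold among the tested probe sets of the 9 listed genes. Its signals were 88085, 119704 and 121711 in 1999, P6 and P10 at 7d, against 1368, 1324 and 9957 at 0h, with no overlap. The log2 fold change was 3.22 ± 0.47 at 6h (adjusted p = 0.0014), 4.96 ± 0.47 at 24h (adjusted p = 3.4e-07) and 5.29 ± 0.47 at 7d, which is 39.0-fold (adjusted p = 9.8e-08). At 24h and 7d it passed under all 14 alternatives. It differed between cultures (adjusted p = 0.0015), with P10 higher than 1999 at 10 of 10 times. The double symbol comes from the annotation, and the level of the microRNA itself was not measured.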

How the results depend on the processing

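The log2 fold change of Plagl1 at 7d passed under all 14 alternatives (−3.03 to −1.89, adjusted p between 3.8e-05 and 0.022). The counts of the 8 genes past the threshold depended on the culture block. With no replicate block for culture, the number was 0 at 12h, 1 at 18h, 1 at 24h, 0 at 36h, 1 at 48h, 1 at 3d, 1 at 4d and 1 at 7d, and 0 for any change over time. Over all probe sets that fit called 1026 in place of 2018 at 24h and 2092 in place of 3633 at 7d. With the 6 arrays of the compared times, the number was 0 at 12h, 1 at 18h, 2 at 24h, 1 at 36h, 0 at 48h, 0 at 3d and 0 at 4d, and over all probe sets 501 were called at 24h and 1525 at 7d. With scan session as a block it was 1 at 6h, 3 at 12h, 1 at 4d, 1 at 7d and 4 for any change. Leaving out each culture in turn gave 0 to 1 at 12h, 2 to 3 at 18h, 1 to 3 at 24h, 2 at 36h, 1 to 3 at 48h, 2 at 3d, 1 to 2 at 4d and 2 to 3 at 7d. It gave 0 to 2 for any change, 2 to 4 between cultures and 0 for the early to late difference by culture. Without P6 at 6h and 12h the number was 3 at 12h and 0 for the early to late difference. Without 1999 at 36h and 48h it was 2 at 12h, and without 1999 at 4d and 7d it was 0 for the early to late difference. Other offsets, quantile normalization and other filters kept each of these counts within 1.5 times. Signs turned only in changes that had not passed. Ndn at 7d was 0.16 with scan session as a block, and Dlk1 at 7d was 0.05 without 1999 at 4d and 7d. When each culture was left out, Dlk1 ranged between −0.70 and 0.01 at 24h and between −1.59 and 0.31 at 7d, and Grb10 between −0.02 and 0.15 at 24h. The causes were not tested. With 1 sample per culture and time, the number of arrays limits the precision. Signals near the offset, such as Mest at 0h in P6 and Meg3 in P6 and P10, give folds that are too small.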
